A study of Mus musculus with 51 samples.

Results

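Among the 24421 genes counted in mouse prefrontal cortex, 10 were taken because their difference between mice given chronic intermittent ethanol (CIE) and control mice was larger in microglia than in total homogenate. The genes were Mxd1, Rnf144a, Hecw2, Pxylp1, Vldlr, Amer2, Adrb1, Plagl1, Gpr19 and Tpst1. In an edgeR model of all libraries, which tested 14379 genes, they stood at ranks 1, 2, 3, 5, 6, 9, 10, 11, 12 and 13 when genes were ordered by p for the microglia minus homogenate difference. In that comparison 0.828% of genes passed the threshold, 0.563% in this direction and 0.264% in the other. The members were thus selected on the CIE responses in microglia and in homogenate, which are given as a description with no test. The CIE response in astrocytes and the levels in the 3 preparations averaged over the treatments were tested. Control and CIE libraries of microglia and homogenate all entered the choice. The averages weigh both treatments equally but use these same libraries, so their p-values are not fully independent of the choice. Level differences in control mice alone are given beside these averages. They are not free of the choice, which favors low levels in control microglia and high levels in control homogenate.

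The mice were C57BL/6J males, bought at 8 weeks of age by the study's methods, and 17 of them (8 control, 9 CIE) gave 3 libraries each. Daily vapor sessions of 16 h, in 4 weekly cycles, exposed the CIE mice to ethanol after injection of ethanol (1.6 g/kg) with pyrazole (1 mmol/kg), an inhibitor of alcohol dehydrogenase, while control mice had saline, the same pyrazole and fresh air. From each medial prefrontal cortex, 5% of the minced suspension was kept as total homogenate, astrocytes were caught from the rest on beads against the surface antigen ACSA2 after myelin removal, and microglia were caught from the unbound cells on beads against CD11b. CD11b is also carried by neutrophils, monocytes and border macrophages, so the bead step cannot part these cells from microglia.

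The 10 genes have no common pathway, and they act at several places in the cell. Vldlr binds reelin and lipoproteins that carry apolipoprotein E, Adrb1 is the beta-1 receptor for noradrenaline, and Gpr19 is an orphan G protein-coupled receptor. Mxd1 pairs with MAX to repress genes that MYC activates, and Plagl1 is a zinc finger transcription factor made from the paternal allele of an imprinted gene. Rnf144a and Hecw2 are ubiquitin ligases that mark other proteins for turnover, and Amer2 binds APC and restrains Wnt signaling. Pxylp1 removes a phosphate from the xylose that starts the sugar chains of proteoglycans, and Tpst1 adds sulfate to tyrosines of secreted and membrane proteins, both in the Golgi.

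By the annotation of mm10, Mxd1 lies on chr6:86647042-86669161, Rnf144a on chr12:26300964-26415254, Hecw2 on chr1:53806876-54195168, Pxylp1 on chr9:96823336-96892669 and Gpr19 on chr6:134869093-134898578, all on the minus strand. Vldlr (chr19:27216484-27254231), Amer2 (chr14:60373259-60388197), Adrb1 (chr19:56722199-56733113), Plagl1 (chr10:13060504-13131694) and Tpst1 (chr5:130073326-130135729) are on the plus strand, and all 10 are protein coding. Sequence at their start sites was looked at because the 10 genes differ together in microglia. RefSeq windows of 300 bases (250 before and 50 after a start site, GRCm38.p6, the mm10 build) were found for all 10 genes, 15 windows in all. Their G and C content had a median of 63.3% (43% to 76.7%), against 52.7% over 32851 windows. The E-box CACGTG, the letters that MXD1 and MYC bind as partners of MAX, was in 1 of the 15 windows, that of Plagl1, and in 7.15% of all windows. The 250 bases before the start site of Mxd1 (chr6:86669160-86669409, minus strand) and of Plagl1 (chr10:13090582-13090831, plus strand, inside the annotated span of the gene) are shown because these genes encode the only transcription factors of the group. Capitals mark the E-box, which lies 182 bases before the start site of Plagl1.
Mxd1: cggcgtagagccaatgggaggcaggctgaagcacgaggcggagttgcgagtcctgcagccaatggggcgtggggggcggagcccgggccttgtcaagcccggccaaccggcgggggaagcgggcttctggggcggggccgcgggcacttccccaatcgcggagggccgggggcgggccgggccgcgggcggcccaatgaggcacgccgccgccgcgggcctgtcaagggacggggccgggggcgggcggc
Plagl1: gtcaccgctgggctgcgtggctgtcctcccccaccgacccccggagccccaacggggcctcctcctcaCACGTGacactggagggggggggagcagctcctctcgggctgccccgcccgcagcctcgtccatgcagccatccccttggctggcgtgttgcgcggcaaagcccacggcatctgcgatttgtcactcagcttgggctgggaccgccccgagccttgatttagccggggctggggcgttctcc
A short form of the interferon-stimulated response element was in 1 window each of Vldlr and Gpr19 and in 3.44% of all windows. The PU.1 letters GAGGAAGT (3.2% of all windows), the AP-1 letters TGANTCA (7.81%), the cyclic AMP response letters TGACGTCA (1.79%) and the palindromic glucocorticoid response element (0.00913%) were in none of the 15. Both strands were searched, no matches overlapped, and a match of letters is not a site of binding.

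Counts assigned to genes ranged from 571878 to 6026453 per microglia library, from 2082289 to 10041788 per astrocyte library and from 5042926 to 15594154 per homogenate library. Levels are CPM (counts scaled to a common library size) with 1 set of scaling factors for all 51 libraries. The 12 microglia markers summed to 27354 to 40146 CPM in control microglia, to 1481 to 6180 in control astrocytes and to 625.3 to 913 in control homogenate. Astrocyte markers summed to 11446 to 20444 CPM in control astrocytes and to 351 to 902 in control microglia, so each of these lists was highest in the bead preparation of its label. Oligodendrocyte markers summed to 16439 to 23439 CPM in control astrocytes, to 2104 to 7516 in control microglia and to 1017 to 3677 in control homogenate. In each of the 17 ACSA2 libraries the 10 oligodendrocyte markers summed to more than the 12 astrocyte markers, and no listed marker of these 3 types was at 0 throughout a group. In such preparations a change in the number of cells of a type and a change in RNA per cell cannot be told apart.

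**Figure D1:**
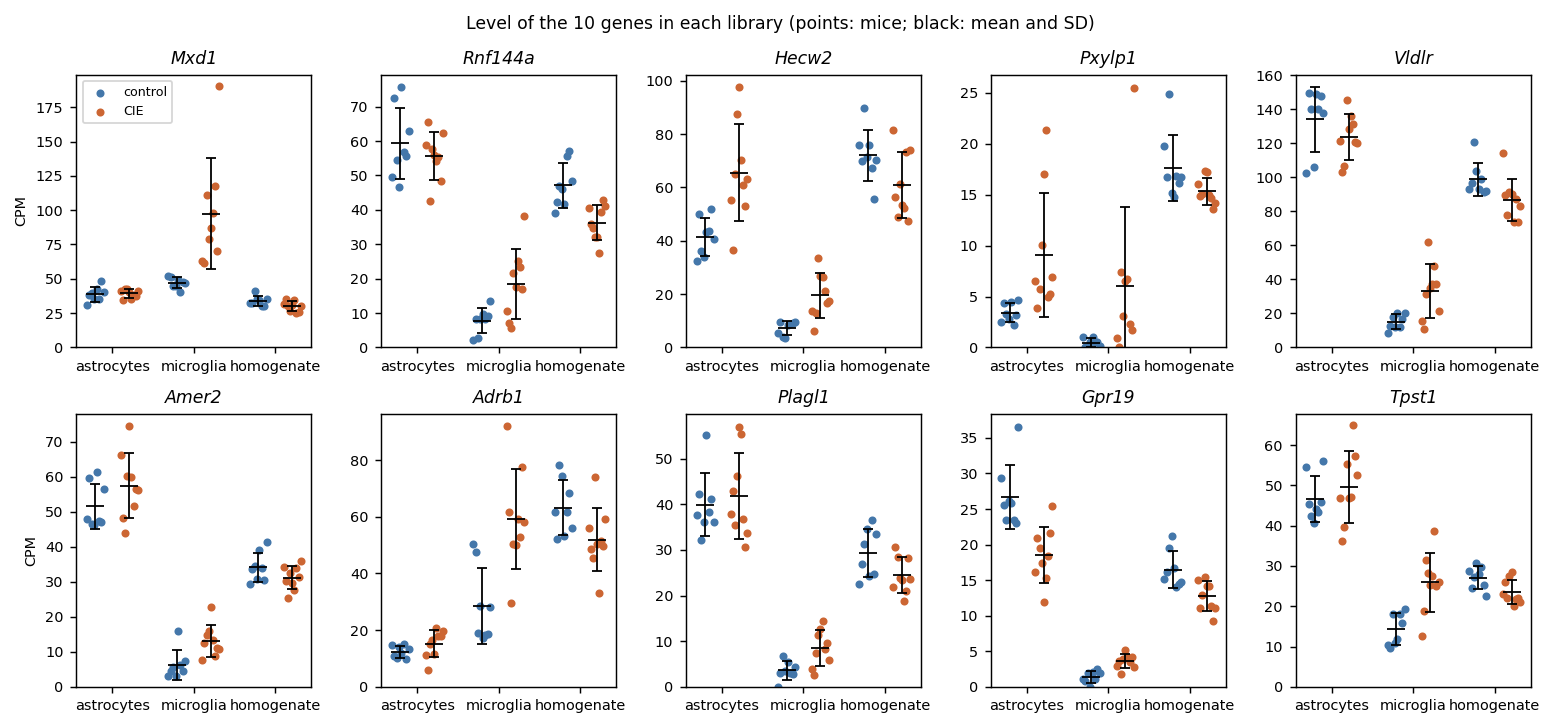
CPM of each of the 10 genes in every library, with 1 point per mouse (blue control, 8 mice; orange CIE, 9 mice) for astrocytes, microglia and total homogenate, and black bars for the mean and SD (cut at 0). In microglia the CIE points lie mostly above the control points, and in homogenate they lie mostly lower with overlap, while levels in microglia are below those in both other preparations for most genes.

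Most of the 10 genes had their lowest level in microglia. Averaged over control and CIE mice, 9 of them were lower in microglia than in homogenate and 1, Mxd1, was higher (edgeR, adjusted p under 0.05 for all 10), in a comparison where 48.4% of 14379 genes were lower and 40.4% were higher. Against astrocytes, 8 were lower in microglia, and Mxd1 and Adrb1 were higher (38.5% of genes lower, 39.9% higher). With 88.8% and 78.4% of all genes called in these comparisons, the count of 10 is near the background and only the directions and sizes describe the genes. Of the 10, Gpr19 had the largest gap to astrocytes, a log2 difference of -3.17 (SE 0.14). Plagl1 followed at -2.82 (SE 0.146) and Amer2 at -2.61 (SE 0.117). Gpr19 and Pxylp1 had too few counts in microglia to be fitted there alone. They entered the model of all libraries through their counts in the other preparations, which favors a low level in microglia. For both genes the direction is a description only. Adrb1 was 1.55 higher in microglia than in astrocytes (SE 0.137, edgeR adjusted p = 6.36e-15) and differed from homogenate by -0.50 (SE 0.127). For Mxd1 the microglia level was higher by 1.09 than in homogenate (SE 0.0932, edgeR adjusted p = 1.12e-15) and by 0.80 than in astrocytes (SE 0.0935).

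Control mice alone had larger gaps for the genes that were low in microglia. Against homogenate this follows from choosing genes with a larger CIE rise in microglia, so it is no separate result. The choice favors low levels in control microglia, so the larger gaps to astrocytes are no separate result either. Against homogenate the log2 differences were -5.39 for Pxylp1, -3.36 for Gpr19, -3.21 for Hecw2, -3.04 for Plagl1, -2.68 for Vldlr, -2.52 for Amer2, -2.43 for Rnf144a, -1.19 for Adrb1, -0.86 for Tpst1 and 0.47 for Mxd1. Averaged over both treatments the lower genes had -3.27, -2.55, -2.38, -2.22, -2.01, -1.87, -1.63, -0.50 and -0.36 in the same order. Against astrocytes the differences in control mice were -4.06 for Gpr19, -3.48 for Plagl1, -3.12 for Vldlr, -3.11 for Amer2, -3.07 for Pxylp1, -2.77 for Rnf144a, -2.41 for Hecw2, -1.64 for Tpst1, 0.27 for Mxd1 and 1.16 for Adrb1. In this last comparison Mxd1 missed the threshold (edgeR adjusted p = 0.0793). Control microglia and control homogenate entered the choice, so these differences are a description and no count of calls is read from them.

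Astrocyte libraries had higher levels than homogenate for 7 of the genes and lower levels for 3, with all 10 past the threshold against 84.1% of all genes (39.8% higher, 44.3% lower). Tpst1 was highest relative to homogenate, at 0.93 (SE 0.0837), with Amer2 at 0.74 (SE 0.0912), Gpr19 at 0.62 (SE 0.0937) and Plagl1 at 0.61 (SE 0.108) next. The 3 lower genes were Adrb1 at -2.05 (SE 0.128), Pxylp1 at -1.52 (SE 0.22) and Hecw2 at -0.34 (SE 0.112). In control mice alone Mxd1 (0.20, edgeR adjusted p = 0.152) and Rnf144a (0.33, adjusted p = 0.0565) no longer passed in this comparison. The other 8 genes had -2.35 (Adrb1), -2.32 (Pxylp1), -0.80 (Hecw2), 0.44 (Vldlr), 0.45 (Plagl1), 0.60 (Amer2), 0.70 (Gpr19) and 0.78 (Tpst1). Control homogenate entered the choice, so these values are a description.

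Levels can be ranked between genes only per length of their exons. Per kilobase, Tpst1 led in control astrocytes at 16.7 ± 2.04 CPM (SD, n = 8), with Vldlr at 13.3 ± 1.89 and Gpr19 at 9.13 ± 1.54 after it. Adrb1 led in control homogenate at 18.7 ± 2.87 and in control microglia at 8.41 ± 3.96, where Mxd1 at 6.67 ± 0.541 and Tpst1 at 5.12 ± 1.44 overlapped it within their SDs. The other 7 genes in control microglia lay between 0.0772 (Pxylp1) and 1.49 CPM per kilobase (Vldlr), and Pxylp1 was last in each preparation.

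Of the receptors in microglia, Vldlr had 8.38, 14.6 and 20.4 CPM (lowest, median and highest) in the 8 control libraries and 10.7, 34.9 and 61.9 in the 9 CIE libraries. CIE libraries lay above the highest control in 7 of 9 mice, with mouse 08 lowest. The log2 difference was 1.18 (SE 0.262). For Adrb1 the control libraries ran from 17.1 through 23.7 to 50.3 CPM and the CIE libraries from 29.6 through 58.1 to 92. All 9 CIE libraries were above the control median and 7 above the highest control, and the log2 difference was 1.12 (SE 0.238). Gpr19 was near the limit of counting in microglia, at 0, 1.48 and 2.45 CPM (lowest, median, highest) in control and 1.85, 3.57 and 5.18 in CIE libraries. These are 29 counts over 8 libraries and 83 over 9, too few for the expression filter (filterByExpr, which drops genes with few counts), and a fit without the filter gave 1.32. Its CIE libraries were above the highest control in 8 of 9 mice.

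The transcription factor Mxd1 was the only one of the 10 whose groups did not overlap in microglia. Control libraries had 40.5, 47.1 and 52.4 CPM (lowest, median and highest) and CIE libraries 61.6, 86.7 and 191. All 9 CIE libraries exceeded the highest control, a pattern that 0.195% of the 10761 genes tested in microglia had in this direction and 0.325% in the other, and the log2 difference was 1.08 (SE 0.186). Mouse 41 held the highest value and mice 06 and 08 the lowest of the CIE group. Without mouse 41 the difference was 0.88. Plagl1 ran from 0 through 3.28 to 6.69 CPM in control and from 2.68 through 8.21 to 14.3 in CIE libraries. Its 64 and 210 counts gave a log2 difference of 1.36 (SE 0.328), with 6 of 9 CIE libraries above the highest control.

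Both ubiquitin ligases were low in control microglia. Rnf144a had 2.1, 8.35 and 13.4 CPM (lowest, median and highest) in control and 5.55, 17.6 and 38.3 in CIE libraries. Its log2 difference of 1.26 (SE 0.305) came with 6 of 9 CIE libraries above the highest control and 2 below the control median. Hecw2 had 3.46, 8.68 and 9.64 CPM in control and 6.25, 17.6 and 33.7 in CIE libraries, with 8 of 9 above the highest control and mouse 08 within the control range. The log2 difference of Hecw2 was 1.44 (SE 0.262). Amer2 had 2.96, 5.09 and 16 CPM in control and 7.75, 12.5 and 22.8 in CIE libraries. All 9 CIE libraries were above the control median of Amer2 but 2 above its highest control, mouse 22, and the log2 difference was 1.17 (SE 0.277).

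The 2 Golgi enzymes stood at opposite ends of the group. Pxylp1 was almost absent from control microglia, with 7 counts over 8 libraries and at most 1.07 CPM, and had 163 counts over 9 CIE libraries, of which mouse 41 gave 91. CIE libraries had 0, 3.13 and 25.4 CPM (lowest, median and highest), and 7 of 9 were above the highest control. Without mouse 41 the CIE mean was 3.6 ± 2.88 CPM (SD, n = 8) against 6.02 ± 7.76 with it (SD, n = 9) and 0.475 ± 0.418 in control libraries (SD, n = 8). The gene failed the expression filter, and the fit without the filter gave a log2 difference of 3.88, whose size rests on few control counts. Tpst1 had the smallest difference of the 10, 0.85 (SE 0.18), with 9.64, 13.8 and 19.3 CPM in control and 12.6, 26 and 38.7 in CIE libraries, 7 of 9 above the highest control. For comparison, 3.47% of genes tested in microglia passed the edgeR threshold (2.31% higher, 1.15% lower), and the 8 genes with enough counts were all among them, a count from which nothing is read since this response entered the choice. Without mouse 20, 5 of them passed, with Rnf144a, Amer2 and Plagl1 lost. Rnf144a also missed the threshold without mouse 36, 26 or 41, Amer2 without mouse 36 and Plagl1 without mouse 35 or 36.

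**Figure D2:**
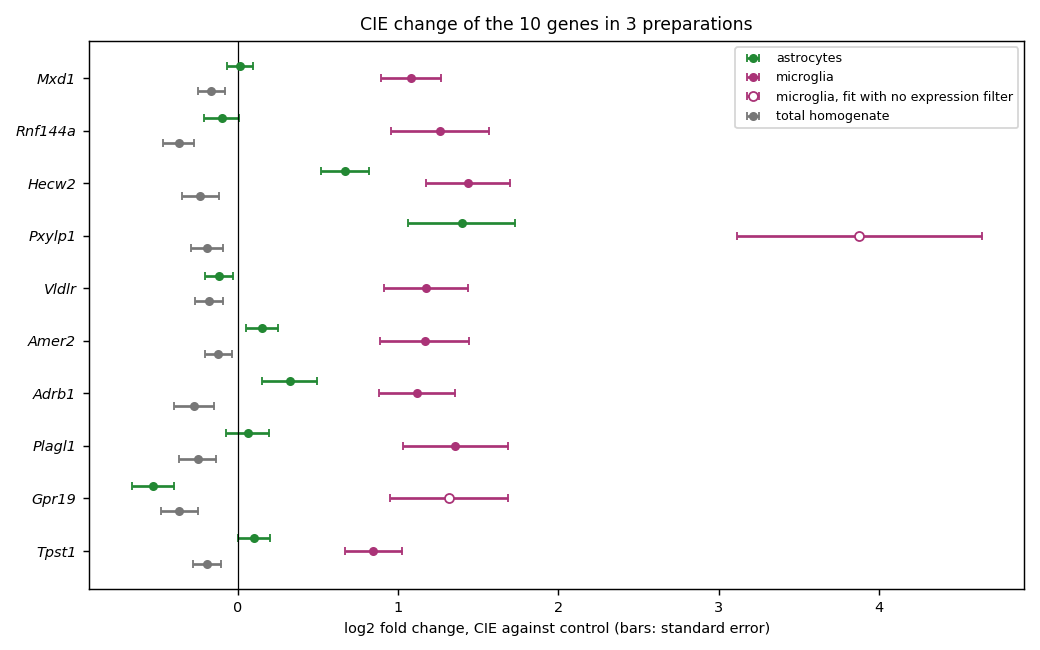
Log2 fold change of CIE against control (horizontal axis, bars give the standard error) for each gene in astrocytes (green), microglia (purple; open circles for the 2 genes fitted without the expression filter) and total homogenate (grey). The microglia points lie between 0.85 and 3.88 and the homogenate points between -0.37 and -0.12, and the astrocyte points lie on both sides of 0.

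In total homogenate each of the 10 genes had a negative CIE minus control difference, the other side of the contrast that chose them. Rnf144a had 39, 46.6 and 57.1 CPM (lowest, median and highest) in control and 27.5, 35.9 and 42.9 in CIE homogenate, a log2 difference of -0.37 (SE 0.0958). Gpr19 followed at -0.36 (SE 0.117), with all 9 CIE libraries below the control median for both genes. The smallest difference was that of Amer2, -0.12 (SE 0.0852). The median over the 10 genes was -0.21, against 0.01 over 13982 genes, and 0.25% of these passed the edgeR threshold (0.193% higher, 0.0572% lower), none of the 10 among them. None had groups without overlap there, which 0.0644% of genes had with CIE higher and 0.0286% with CIE lower. The microglia minus homogenate difference ran from 1.01 for Tpst1 to 1.66 for Hecw2, with Pxylp1 apart at 4.25. Just inside the edge of the group stood Tpst1 at rank 13, and just outside Ptprf at rank 14 with 1.43. Slc2a3 (1.55) and Ddit4 (1.25), at ranks 7 and 8, are not among the 10, and Sepp1 at rank 4 had the opposite sign (-0.78).

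The CIE difference in astrocytes was not part of the choice. There 3 of the 10 genes passed the edgeR test at an adjusted p under 0.05: Hecw2 and Pxylp1 rose and Gpr19 fell. Over all 12878 genes tested 5.13% passed, 2.91% higher and 2.22% lower. Neither of the 2 receptors Vldlr and Adrb1, nor Mxd1, Rnf144a, Amer2, Plagl1 or Tpst1, passed. The median log2 fold change was 0.08 over the 10 genes and 0.00 over all genes. The astrocyte libraries came from the same mice as the microglia that chose the genes. The model that ranked the genes also took their spread from all libraries, those of astrocytes included.

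Hecw2 had 32.3, 42 and 51.8 CPM (lowest, median and highest) in control and 36.6, 63.3 and 97.6 in CIE astrocytes. In 8 of 9 CIE mice the value was above the highest control, and mouse 08 again lay within the control range. Hecw2 rose by 0.67 on the log2 scale (SE 0.149, edgeR adjusted p = 0.015), with 0.16 among mice 03 to 08, 1.07 among mice 19 to 26 and 0.38 among mice 35 to 41 (differences of mean log2(CPM + 0.5)). Pxylp1 had 2.24, 3.21 and 4.61 CPM in control and 3.84, 6.53 and 21.3 in CIE astrocytes, again with 8 of 9 CIE mice above the highest control. It rose by 1.40 (SE 0.333, edgeR adjusted p = 0.0207), on 142 counts in control and 594 in CIE libraries, and by 0.52, 1.67 and 0.73 within the 3 ranges of mouse numbers.

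Gpr19 differed in sign between the bead preparations. Control astrocytes had 23, 25.7 and 36.6 CPM (lowest, median and highest) and CIE astrocytes 11.9, 18.5 and 25.4, and 8 of 9 CIE mice were below the lowest control. The log2 fold change was -0.53 (SE 0.131, edgeR adjusted p = 0.0246), and within the ranges of mouse numbers it was -0.56, -0.65 and -0.32. The call was lost without mouse 26 (edgeR adjusted p = 0.0528). No gene of the group was free of overlap in astrocytes, where 0.21% of genes had every CIE library above every control and 0.225% the reverse.

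The 7 genes that did not pass in astrocytes had log2 fold changes from -0.12 to 0.32. Adrb1 had 9.68, 12.6 and 15.1 CPM (lowest, median and highest) in control and 5.93, 16.4 and 20.6 with CIE, and its log2 fold change was 0.32 (SE 0.17, edgeR adjusted p = 0.281). Mouse 08 was again lowest, and without the 4 mice numbered under 10 the value was 0.47 (edgeR adjusted p = 0.0478). Mxd1, with no overlap in microglia, spanned 30.6 to 48.7 CPM in control astrocytes (median 39) and 34.9 to 42.8 in CIE ones (median 40.4), with a value of 0.01 (SE 0.0797). Vldlr was at -0.12 (SE 0.0876), Rnf144a at -0.10 (SE 0.107), Amer2 at 0.15 (SE 0.102), Tpst1 at 0.10 (SE 0.0999) and Plagl1 at 0.06 (SE 0.134).

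Of the marker lists in CIE astrocytes, 5 had a marker past the threshold. Of 10 oligodendrocyte markers 1, Mobp, was higher (median log2 fold change 0.10), of 8 border macrophage and monocyte markers 2, Cd163 and Siglec1, were higher (median 0.54), and of 10 oligodendrocyte precursor markers 1, Gpr17, was lower (median -0.78). Of 12 astrocyte markers 1, Gjb6, was higher (median -0.14), and of 10 neuron markers 1, Tubb3, was higher (median -0.38). With the mean level of the oligodendrocyte list as a covariate, Hecw2 had 0.58 (edgeR adjusted p = 0.0607) and Pxylp1 1.11 (adjusted p = 0.0937), and Gpr19 alone still passed. With the precursor list as covariate only Pxylp1 passed, with 1.53 (edgeR adjusted p = 0.0448), while Hecw2 had 0.59 (adjusted p = 0.0843) and Gpr19 -0.60 (adjusted p = 0.0529). With the border macrophage list only Gpr19 passed, with -0.68 (edgeR adjusted p = 0.0448), against 0.67 for Hecw2 (adjusted p = 0.0911) and 1.45 for Pxylp1 (adjusted p = 0.102). The microglia list, none of whose 12 markers passed, left all 3 calls in place.

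By range of mouse numbers, which the labels give with no further meaning, the microglia difference was smallest in the lowest numbers. Among mice 03 to 08 (2 control, 2 CIE) 9 of the 10 genes were higher in CIE microglia, with a median difference of 0.60 in mean log2(CPM + 0.5). All 10 were higher among mice 19 to 26 (3 and 4 mice, median 1.24) and among mice 35 to 41 (3 and 3 mice, median 1.08). Pxylp1 was the exception in the first range, at -0.04. Mxd1 had 0.26, 1.00 and 1.37 in the 3 ranges and Hecw2 0.35, 2.17 and 0.96. Amer2, at 1.29, 1.26 and 0.75, had its largest difference in the first range. The value of Plagl1 was also largest there, but it rests on 0 and 4 counts in control and 4 and 3 counts in CIE libraries. In homogenate 4, 0 and 0 of the 10 genes were higher in CIE mice across the 3 ranges. Both responses entered the choice of genes, so these counts are a description only.

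**Figure D3:**
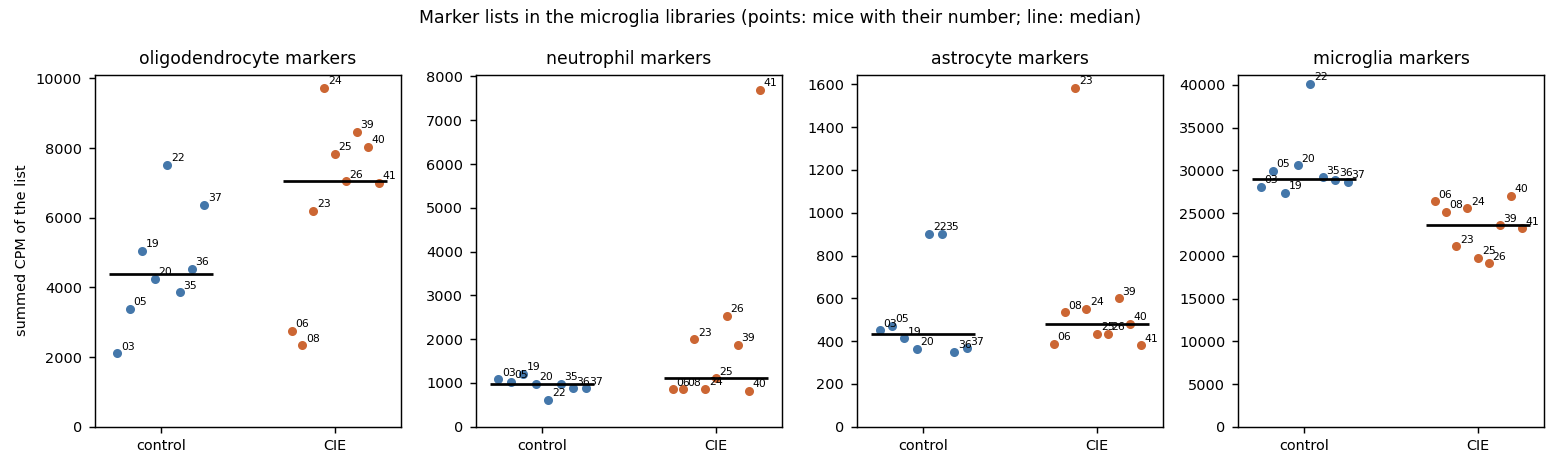
Summed CPM of 4 marker lists in each microglia library (left control, right CIE, lines give the median, labels give the mouse number). Oligodendrocyte markers have a higher median in CIE microglia, microglia markers a lower one, and neutrophil markers reach 7689 CPM in mouse 41.

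Markers of other cell types moved with treatment in the microglia libraries. Of 11 neutrophil markers tested 10 were higher in CIE microglia, with a median log2 fold change of 2.95. The sum of the list ranged from 612 to 1209 CPM (median 983) in control libraries. In CIE libraries it ranged from 815 to 7689 (median 1102), and mice 06, 08, 24, 25 and 40 lay within the control range. The tested marker that did not pass was Csf3r, which averaged 778 CPM in control microglia and makes up most of the control sum. Oligodendrocyte markers summed to 2104 to 7516 CPM (median 4395) in control and 2338 to 9732 (median 7049) in CIE microglia, 1 of 10 passed, and their median was 0.59. Microglia markers summed to 27354 to 40146 in control and 19105 to 27041 in CIE microglia, with 3 of 12 lower and a median of -0.36. No marker passed among the 11 for astrocytes (median 0.15), 8 for neurons (median 0.05), 10 for endothelial cells (median 0.15), 8 for mural cells and fibroblasts (median 0.21), 9 for border macrophages and monocytes (median 0.05), 5 for oligodendrocyte precursors (median 0.29) and 2 for T, NK and B cells (median 0.02). None of the 6 erythroid markers had enough counts. The median of all genes was -0.01 and that of the 8 chosen genes with enough counts was 1.17.

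Mean levels of these lists, taken as covariates in the microglia fit, moved the 8 genes by different amounts. With the neutrophil list the difference of Mxd1 was 0.52 in place of 1.08 and that of Rnf144a 0.70 in place of 1.26, while Vldlr stayed at 1.18 and Hecw2, Amer2, Plagl1 and Adrb1 had 1.36, 1.26, 1.29 and 1.26. With the oligodendrocyte list the median of the 8 genes was 0.83, against 1.17 without a covariate. Vldlr was then at 0.48 in place of 1.18 and Plagl1 at 0.65 in place of 1.36. Under the same list Mxd1 stayed at 0.95 and Adrb1 at 1.41. Adrb1 was the gene least moved, between 1.10 and 1.43 under the covariate, scaling and filter settings and DESeq2, and with both lists Rnf144a was at 0.37 and the median of the 8 genes at 0.70. Astrocyte, neuron, precursor and endothelial lists left the median between 1.17 and 1.20. All 8 values were positive under each of these settings, which the choice of genes on these libraries favors.

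**Figure D4:**
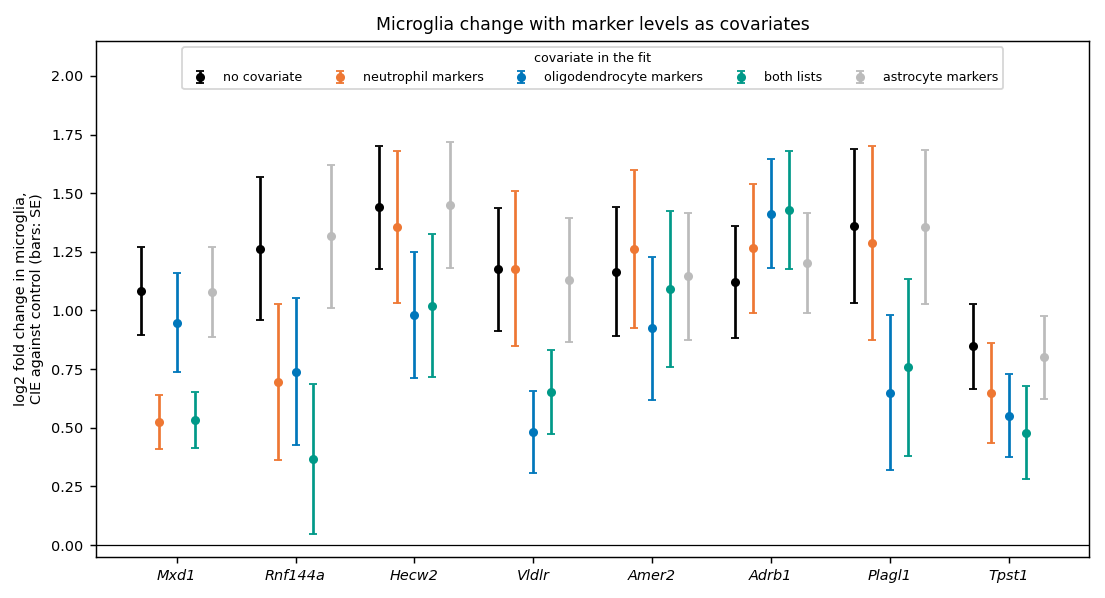
Log2 fold change of CIE against control in microglia (vertical axis, bars give the standard error) for the 8 genes with enough counts, without a covariate (black) and with the mean level of marker lists in the fit. Mxd1 is lower with the neutrophil list (0.52), Vldlr with the oligodendrocyte list (0.48), and Adrb1 with neither.

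The level in microglia as a percent of that in the astrocyte preparation is set beside the same percent for cell type markers. What part other cells had in the levels of the 10 genes was not tested. In control mice the microglia level of the 10 genes was 5.3% (Gpr19) to 229% (Adrb1) of the astrocyte level. The 12 astrocyte markers had 1.49% to 10.9% (median 2.5%), and 8 of the 10 genes were above the highest of them. The 10 oligodendrocyte markers had 17.9% to 24.5% (median 21.8%), and 3 genes, Adrb1, Mxd1 and Tpst1, were above the highest. In CIE mice the genes had 19.3% to 390% of the astrocyte level, the astrocyte markers 1.25% to 11.3% and the oligodendrocyte markers 25.3% to 34.8%. All 10 genes were then above the highest astrocyte marker and 4 above the highest oligodendrocyte marker, Pxylp1 at 66.5% being the addition. The genes, unlike the markers, were chosen for a CIE rise in microglia, so nothing is read from their higher percents in CIE mice. Set against homogenate, fewer genes were above the astrocyte and oligodendrocyte markers. Astrocyte markers in control microglia had 1.82% to 23.4% of their homogenate level, and 3 of the 10 genes, Mxd1, Tpst1 and Adrb1, were above the highest, while in CIE mice the markers had 2.76% to 31.4% and 9 genes were above, with Gpr19 at 28.1% below. Oligodendrocyte markers had 51.1% to 454% of their homogenate level in control microglia, and none of the 10 genes was above the highest in either treatment. Neuron markers in control microglia had 1.54% to 7% of their homogenate level, and 9 of the 10 genes were above that range, with Pxylp1 at 2.7% inside it.

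**Figure D5:**
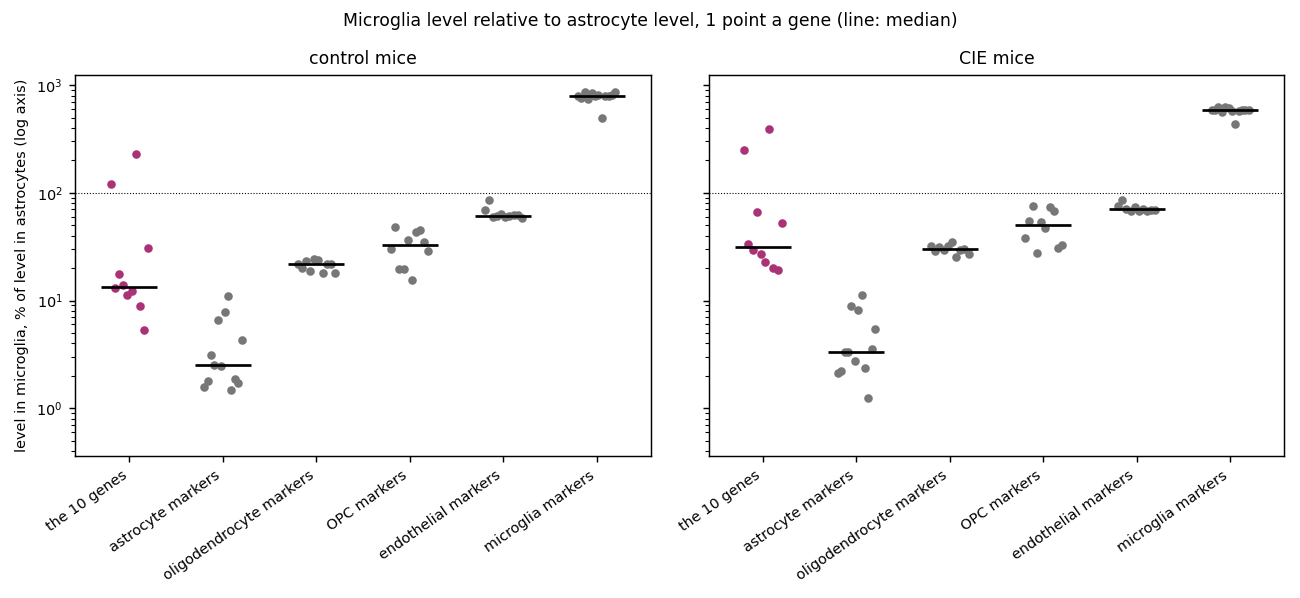
Mean level in microglia as a percent of the mean level in astrocytes (log axis) for each of the 10 genes (purple) and each marker of 5 cell types (grey), in control mice (left) and CIE mice (right), with lines at the medians. Most of the 10 genes lie above the astrocyte markers and near or below the oligodendrocyte markers. Adrb1 and Mxd1 lie above 100%, and all 10 lie below the microglia markers.

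Over the 17 microglia libraries, after each treatment group's mean was taken off, the 45 pairs among the 10 genes had a median correlation of 0.29 in log2 CPM, from -0.64 (Adrb1 and Tpst1) to 0.79 (Mxd1 and Pxylp1), with 33 pairs positive. The 5 other genes most like the mean of the 10 in these libraries, out of 13361, were Psat1 (0.94), an enzyme of serine synthesis, Anln (0.94), a scaffold of actin and septins, Cers2 (0.93), a ceramide synthase, Tm7sf3 (0.93) and Slc44a1 (0.92), a choline transporter. These points share library depth and cell makeup, and no test was made. All 5 had more CPM in control astrocytes than in control microglia, for example 304 against 51.8 for Anln and 324 against 166 for Cers2. Anln, Cers2, Tm7sf3 and Slc44a1 had more CPM in control microglia than in control homogenate (16.6 for Anln and 47.3 for Cers2 in homogenate). Psat1 had less, at 76.9 against 108 CPM.

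Of 76 other genes in 9 lists of relatives and partners of the 10, 61 were tested in astrocytes, where 1 passed higher and 1 lower (5.13% of all genes passed there), with a median log2 fold change of -0.04. The higher gene was Mycl, a MYC relative, which went from 5.09 ± 0.587 CPM (SD, n = 8) to 12.1 ± 7.55 with CIE (SD, n = 9) and rose by 1.25 (SE 0.297, edgeR adjusted p = 0.0207). The lower gene was Xylt1, the enzyme that adds the xylose from which Pxylp1 takes phosphate, with -0.63 (SE 0.173, edgeR adjusted p = 0.0406). In microglia 50 of the 76 were tested and 1 passed (3.47% of all genes), Mylip, a ligase that leads to breakdown of Vldlr and the LDL receptor, with -0.62 (SE 0.12, edgeR adjusted p = 0.00745). Mylip was named after its values were seen. Of 73 tested in homogenate none passed (0.25% of all genes).

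Close relatives of Tpst1 and Plagl1 had log2 fold changes near 0 or below in microglia. Tpst2 was at 213 ± 15.9 CPM (SD, n = 8) in control microglia with a log2 fold change of -0.04 (SE 0.0831), against 0.85 for Tpst1, and Papss1, which makes the sulfate donor, was at 0.00 (SE 0.119). Plagl2 had -0.21 (SE 0.128) against 1.36 for Plagl1. Lrp1 had 0.01 (SE 0.166), Apoe -0.13 (SE 0.197), Apc -0.04 (SE 0.135), Ctnnb1 -0.18 (SE 0.119) and Igf2r 0.65 (SE 0.28). Adra1a, at 37 CPM in control astrocytes, had too few counts in microglia. None of these 8 genes with enough counts passed the edgeR threshold in microglia, and the differences between relatives were not tested.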

How the data were processed

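Deposited files held raw counts per gene symbol for 24421 genes in 51 libraries of 17 mice. According to the submitters' processing notes, the authors made these counts with HTSeq 0.6.1p1 from mm10 alignments by STAR 2.5.0a, and the notes also name Picard 1.141, cutadapt 1.8 and bcl2fastq 2.17. The strand setting and annotation release of the counting are not given in the sources used here. The 5 summary rows of HTSeq stayed out of library sizes and tests, and 0 columns went unmapped. Of these, the rows for reads in no gene and for ambiguous reads made up 14.9% to 47.7% of the gene counts plus those rows.

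The genes, lists and tests were chosen with earlier results of these data known. Each preparation was fitted by the quasi-likelihood test of edgeR 4.0.16 (R 4.3.3), with filterByExpr and TMM factors and a threshold of 0.05 on p adjusted by Benjamini-Hochberg over all genes tested. Levels and differences between preparations came from 1 model of all libraries. The standard error (SE) is the size of a log2 fold change over the square root of F. The numbers pair libraries, because same-numbered libraries came from the same mouse: deviations from group means correlated above 0.1 in 9, 9 and 3 of 17 mice for astrocytes with microglia, astrocytes with homogenate and microglia with homogenate. The script was tested on simulated data. Alternatives were RLE scaling, no filter, DESeq2 1.42.0, mouse-number range, marker-level covariates, mouse as a replicate block and leaving out each mouse or the 4 mice under 10. The fits with the oligodendrocyte, precursor, astrocyte, endothelial and border macrophage lists, and with the microglia list in microglia, were added after the data were seen.

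Named genes were the 10, for each list the genes passing in astrocytes or else up to 2 with the largest counts, and the 5 most correlated genes. Samples that the study set aside for low RNA or as outliers are not analysed here. Replicates are separate mice, and libraries of 1 mouse share an animal.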

Additional observations from a re-analysis of the deposited data

Results flagged for a closer look

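Of 60 groups of 8 or 9 libraries (10 genes, 3 preparations, 2 treatments), 8 had a highest library set far apart from the rest, where chance gives about 1 in 20. In microglia, mouse 41 stood apart in the CIE group for Mxd1 (191 CPM, next 118) and Pxylp1 (25.4 CPM, next 7.4), and mouse 22 in the control group for Amer2 (16 CPM, next 7.23). Mouse 41 also had the highest sum of neutrophil markers. In astrocytes, control mouse 22 stood apart for Plagl1 (55.2 CPM, next 42.3) and control mouse 37 for Gpr19 (36.6 CPM, next 29.4). In homogenate, control mouse 19 stood apart for Mxd1 (40.9 CPM, next 35.3) and Vldlr (121 CPM, next 104), and CIE mouse 06 for Vldlr (114 CPM, next 91.3). The part of these libraries in the results was not tested beyond leaving each out.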

How the results depend on the processing

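Each microglia value that could be fitted was positive under each alternative, and their median stayed between 0.70 and 1.30. The choice of genes on these libraries favors positive signs, so the signs are no check of the response. Plagl1 had too few counts in 5 of the 17 fits without 1 mouse, which held 7 genes, and 5 (without 20) to 8 genes were called in microglia. Genes called in astrocytes (661) were 1129 with mouse-number range as covariate, 1132 without the 4 mice under 10, 1158 with DESeq2, 1050, 324, 271 and 160 with the microglia, oligodendrocyte, precursor and border macrophage lists, and 354 (without 26) to 1001 (without 08) without 1 mouse. Of the 10 genes 1 was called in astrocytes with each of the last 3 lists. Genes called in microglia (373) were 775, 727 and 757 in the first 3 of these settings, 954 in the model of all libraries, 59, 133, 30 and 78 with the neutrophil, oligodendrocyte, microglia and both first lists, and 182 (without 20) to 684 (without 08) without 1 mouse. Genes called in homogenate (35) were 81, 7 and 193, 125 in the model of all libraries, and 15 to 71 without 1 mouse. The microglia minus homogenate difference gave 119 calls, 49 to 188 without 1 mouse, and 113 with mouse as a replicate block, where the median of the 10 genes was 1.49 as without it. Without 1 mouse, 2 or 3 of the 10 genes were called in astrocytes. The replicate block changed no call of a level between preparations. Signs turned in astrocytes for 4 genes near 0. Mxd1 was -0.023 without the 4 mice under 10, -0.030 and -0.0098 with the precursor and border macrophage lists, and -0.031 (without 03) to 0.054 (without 36) without 1 mouse. Plagl1 was -0.0027 with the oligodendrocyte list and -0.0085 (without 25) to 0.15 (without 22) without 1 mouse, Tpst1 was -0.014 with the oligodendrocyte list, and Rnf144a was 0.032 with the border macrophage list. The causes were not tested. Low microglia counts limit Pxylp1, Gpr19 and Plagl1 most.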
